A study of Mus musculus with 18 samples.

Results

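The genes of PI3K, AKT, SGK and mTOR signaling were followed in mouse myeloid cells growing in Interleukin-3 (IL-3) and after IL-3 loss, with and without p53. The list held 35 genes, from the insulin and IGF receptors and the PI3K subunits to the mTOR complexes and their targets, and took in every array probe annotated to these symbols. A named probe was found for 34 of the 35, Rps6kb1 being the one not analysed here, and 28 of these were detected on at least 1 array at a detection p under 0.01. These 28, with 56 probes, were measured among 11195 named genes. Pik3ca, Pik3r5, Akt1, Rheb, Phlpp1 and Irs1 had probes that were not detected on any array, so no value is given for them.

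Class I PI3K is recruited by growth factor and cytokine receptors and makes the membrane lipid PIP3. PIP3 brings AKT to the membrane, where PDK1 and the mTORC2 complex phosphorylate it, and the SGK kinases are activated by the same pair of kinases. Active AKT phosphorylates GSK3, the TSC complex and PRAS40, which frees the mTORC1 complex to drive protein synthesis. In IL-3 dependent myeloid cells the IL-3 receptor feeds this pathway, which is known for its part in cell survival and growth.

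Factor-dependent myeloid (FDM) cells are immortalized by HoxB8 and need IL-3 to survive. RNA came from 3 clones of p53-/- cells and 3 clones of WT cells, all of them HoxB8-transformed, at 0, 6 and 18 h without IL-3, the 0 h cells being those growing in IL-3. This gave 6 groups of 3 and 18 Illumina MouseWG-6 V1 arrays. The same 3 clones of a genotype were read at each time, so a clone may carry its own expression pattern through all 3 times, and an array reports RNA from a whole culture, in which fewer cells of a type and less RNA per cell cannot be told apart.

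Between 30.69% and 34.0% of probes were detected on 17 of the arrays. Apart from these was the array of the third p53-/- clone at 18 h, with 27.01% detected, the lowest median intensity (102.9, against up to 175.2) and a weight of 0.0905 in the fit, against 4.34 for the second WT array at 0 h. The methods of the study left out 1 array that they did not name, and all 18 were used here. Cdkn1a, a classical p53 target that encodes the cell cycle inhibitor p21, was lower in p53-/- cells at 0 h (log2 difference -3.02), and the IL-3 target Cish fell at 6 h without IL-3 in both p53-/- cells (-2.01) and WT cells (-2.21). A probe for Trp53 was not analysed here. Of 10 myeloid progenitor markers, 6 to 10 were detected per array, with Kit detected on 1 of the 18 arrays. Markers of other blood lineages differed between the genotypes. At 0 h Slc4a1 and Gp9, of 7 erythroid and megakaryocyte markers, were higher in p53-/- cells, while Fcer1a and Cpa3, of 6 mast cell and basophil markers, Adgre1, of 3 monocyte and macrophage markers, and Thy1, of 2 lymphoid markers, were lower. The same 6 differed at 6 h, and at 18 h Slc4a1, Gp9 and Pf4 were higher and Thy1 and the progenitor marker Cebpa lower in p53-/- cells. For Pf4 the groups overlapped at 18 h, with 9.85, 9.80 and 4.99 in p53-/- cells, against 6.45, 6.70 and 8.91 in WT cells. The lowest of these was the array with a weight of 0.0905. Slc4a1 was not detected on any WT array at 0 h. Over the 3 times the summed log2 intensity of the erythroid and megakaryocyte list lay between 13.66 and 14.32 in p53-/- cells and between 13.07 and 13.99 in WT cells, and that of the mast cell and basophil list between 15.23 and 15.98 in p53-/- cells and between 15.97 and 16.48 in WT cells. For the monocyte and macrophage list it lay between 13.52 and 15.06 in p53-/- cells and between 14.71 and 15.41 in WT cells. The lymphoid list summed to between 5.67 and 10.82 in p53-/- cells and between 13.69 and 14.89 in WT cells, and the progenitor list to between 14.14 and 14.85 in p53-/- cells and between 14.27 and 15.41 in WT cells. Of the 6 lymphoid markers listed, 2 were measured, Thy1 and Cd2, and the WT sum was almost all Thy1. Cd2 was detected on 3 arrays, and Cd3e and Cd79a on 0, so the sum does not show lymphoid cells. These differences run beside every genotype comparison that follows, and their part in it was not tested. After IL-3 loss no listed marker was called in p53-/- cells, and in WT cells Cebpa and Itga2b rose by 18 h while Pf4, of the same erythroid and megakaryocyte list as Itga2b, fell by 2.69 between 6 h and 18 h.

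Values are log2 intensities after background correction and quantile normalization, and each gene is given by its brightest probe unless another is named. Intensities of different probes were not set against each other. A probe was called at a Benjamini-Hochberg adjusted p of 0.1 or lower over 21413 probes with a positive B statistic, the log odds that it changed, from a limma fit in which each array was weighted. Log2 differences are therefore weighted estimates and depart from plain differences of group means. A probe that was not called is not thereby shown to be unchanged. With 3 clones a group, an exact permutation test of 1 gene could not give a p below 0.1.

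Few members passed in the comparison of p53-/- with WT cells, and on brightest probes Sgk1 was the only one called higher in p53-/- cells. Of the further probes, those of Sgk1 at 0 h, Mtor at 6 h and Mlst8 at 18 h were also called higher there, and those of Pik3cg and Sgk3 lower. At 0 h 2 of 28 members were called, Sgk1 higher and Rictor lower, where 4.8% of all named genes were called, 2.13% higher and 2.67% lower. At 6 h 3 of 28 were called, all lower, being Pik3cb, Rictor and Ddit4, against 9.09% of all genes, of which 5% were lower and 4.09% higher. At 18 h 2 of 28 were called, Pik3cb and Pik3cg, both lower, against 7.84% of all genes (3.47% lower and 4.37% higher). Scaling each array to its median instead gave Sgk1 alone at 0 h, and 1 higher and 2 lower at 18 h. These shares, 7.14%, 10.7% and 7.14% of the members, were near those of all genes. The median log2 difference of the 28 members was -0.25 at 0 h, -0.13 at 6 h and -0.25 at 18 h, beside 0.04, 0.00 and 0.06 over all genes. Without the third p53-/- array at 18 h the counts were 3, 4 and 2 members.

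**Figure D1:**
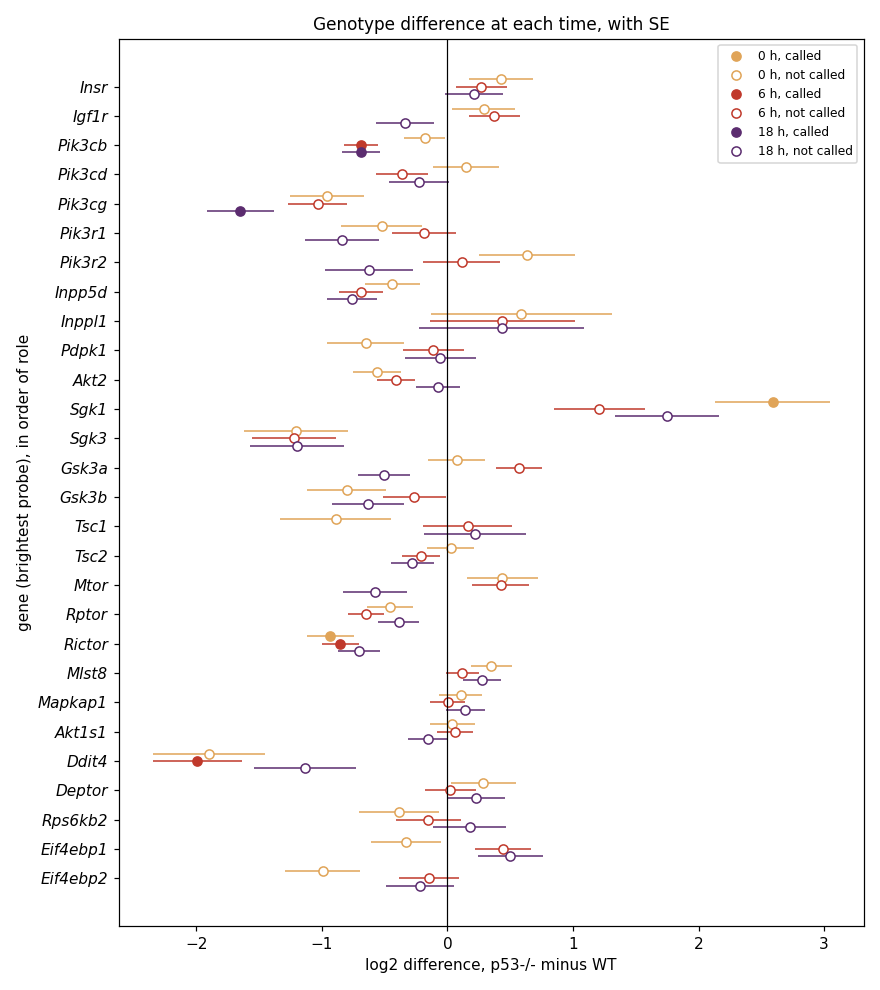
Log2 difference between p53-/- and WT cells at 0, 6 and 18 h without IL-3 (x axis, p53-/- minus WT) for the brightest probe of each of the 28 measured members (y axis, grouped by role), with standard errors as bars and filled points for the members called. Sgk1 lies to the right at all 3 times, and Ddit4, Rictor, Pik3cg and Pik3cb lie to the left.

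In the fit with array weights, more members were called after IL-3 loss in WT than in p53-/- cells, as was the case over all genes. Without the weights the WT counts were 0, 0 and 1 (6 h against 0 h, 18 h against 6 h, 18 h against 0 h). The p53-/- calls of Sgk1 at 6 h and Rptor at 18 h against 0 h were kept, so this order of the members did not hold. Over all probes it did (281, 400 and 1316 in WT cells, 248, 158 and 652 in p53-/- cells). In WT cells 2 of 28 members were called at 6 h against 0 h, both higher (6.91% of all genes, 2.65% higher and 4.26% lower), 2 at 18 h against 6 h, both higher (8.15%, 2.56% higher and 5.58% lower), and 5 at 18 h against 0 h, 4 higher and 1 lower (18.2%, 7.61% higher and 10.6% lower). Among p53-/- cells 1 of 28 fell at 6 h against 0 h (1.65% of all genes, 0.572% higher and 1.08% lower), 0 were called at 18 h against 6 h by limma (1.6% of all genes, 0.5% higher and 1.1% lower, with 0 members at an unadjusted p under 0.05), and 2 were called at 18 h against 0 h, 1 in each direction (3.92%, 1.41% higher and 2.51% lower). With median scaling the last count was 0 higher and 2 lower, and with the other background corrections the WT count at 18 h against 0 h was 4 higher and 0 lower. The median log2 change of the members from 0 h to 18 h was 0.03 in p53-/- cells and 0.20 in WT cells, beside 0.02 and 0.00 over all genes. With clone as a block, which takes out each clone's own level, 4 members were called at 6 h against 0 h in p53-/- cells (5.92% of all genes) and 5 in WT cells (9.69%). At 18 h against 0 h the block gave 3 members in p53-/- cells (8.72%) and 7 in WT cells (25.2%), and at 18 h against 6 h 0 in p53-/- cells (3.96%) and 1 in WT cells (12.4%). Between the genotypes it gave 2, 3 and 2 members at 0, 6 and 18 h (5.03%, 9.69% and 8.67% of all genes).

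A fall or rise called in one genotype and not in the other was not by itself a difference between them. The test of the difference in the change from 0 h to 6 h called 0 of 28 members (0% of all genes, with 4 members at an unadjusted p under 0.05), and that from 0 h to 18 h also called 0 (1.38% of all genes, again with 4 members at an unadjusted p under 0.05). With clone as a block the counts were 0 (1.58% of all genes) and 1 (5.65%), the 1 being Eif4ebp1. Over the 11 comparisons 10 of 28 members (35.7%) were called on their brightest probe in at least 1, beside 30% of all named genes, and 18 in none.

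**Figure D2:**
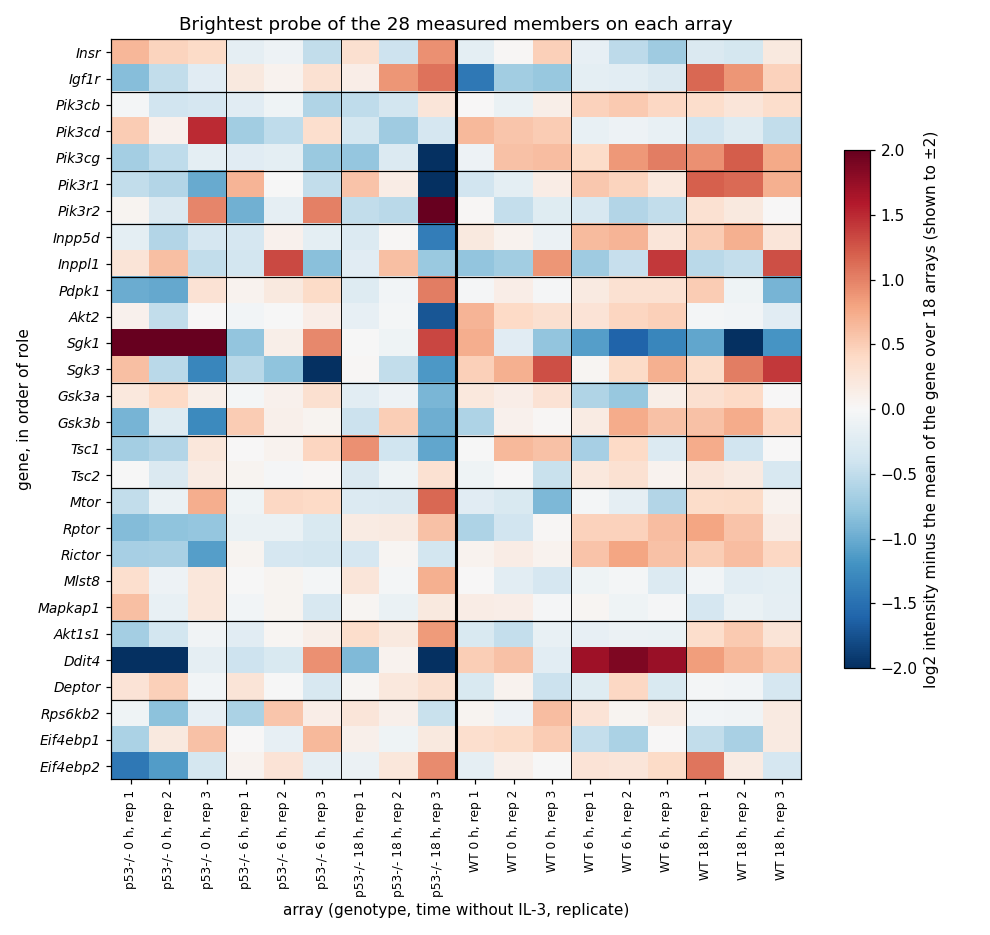
Log2 intensity of the brightest probe of the 28 members (rows, grouped by role with lines between roles) on each of the 18 arrays (columns, p53-/- left and WT right, each in order of hours without IL-3), as the difference from the mean of the gene over all arrays and shown to ±2. Sgk1 is high on the 3 p53-/- arrays at 0 h, Ddit4 is high on the 3 WT arrays at 6 h, and the third p53-/- array at 18 h departs from its group in many rows, with Pik3cg at 8.46 and Pik3r1 at 8.08.

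Among the receptors, Igf1r, which encodes the IGF-1 receptor that activates PI3K through its adaptors, rose after IL-3 loss on its brightest probe. Its log2 intensities in p53-/- cells were 10.54, 10.90 and 11.17 at 0 h, 11.59, 11.46 and 11.70 at 6 h, and 11.53, 12.28 and 12.48 at 18 h. In WT cells they were 9.97, 10.70 and 10.64 at 0 h, 11.20, 11.19 and 11.11 at 6 h, and 12.54, 12.28 and 11.86 at 18 h. On this probe each clone of both genotypes was higher at 18 h than at 0 h, with no overlap of the groups. The rise in WT cells was 1.69 from 0 h to 18 h (SE 0.187, adjusted p = 4.32e-06) and 1.11 from 6 h to 18 h (SE 0.196, adjusted p = 0.000948). The first was called with any 1 array left out, and the second was not called without the first or the second WT array at 18 h (adjusted p up to 0.0649). Averaged over all Igf1r probes neither was called (0.80 and 0.44), and the second was not called without array weights (1.06, adjusted p = 0.0465). In p53-/- cells the change of 1.07 (SE 0.287, adjusted p = 0.031) had a negative B and was not called, and the difference between the genotypes was not called. A second bright Igf1r probe had a smaller change in WT cells, 0.72 (SE 0.212, adjusted p = 0.013), which was called only with clone as a block, and the third, dim probe was not called in any comparison. In p53-/- cells the second probe averaged 11.30 at 0 h and 11.46 at 18 h, with overlap. Its first p53-/- clone was lower at 18 h (10.88) than at 0 h (11.16). Insr, which encodes the insulin receptor, was detected on 9 arrays and was not called.

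Of the catalytic subunits of PI3K, Pik3cg and Pik3cb passed between the genotypes. Pik3cg encodes p110 gamma, the subunit of leukocytes that G protein-coupled receptors activate. Its log2 intensities at 0 h were 10.44, 10.61 and 10.91 in p53-/- cells, against 11.02, 11.71 and 11.73 in WT cells. At 6 h they were 10.89, 10.92 and 10.38 in p53-/- cells, against 11.49, 11.99 and 12.14 in WT cells. At 18 h they were 10.35, 10.85 and 8.46 in p53-/- cells, against 12.03, 12.33 and 11.88 in WT cells. Every p53-/- array lay below every WT array of the same time. The log2 difference was called at 18 h (-1.65, SE 0.267, adjusted p = 0.000672) and not at 0 h (-0.96, SE 0.293, adjusted p = 0.0422, negative B) or 6 h (-1.03, SE 0.235, adjusted p = 0.00547, negative B). Without the first p53-/- array at 18 h the difference at 18 h was no longer called, nor without the second WT array at 18 h (adjusted p up to 0.183), with differences of -2.55 and -1.40. Without the second p53-/- array at 18 h it was -2.79, and without the third, the lowest of all, it was -1.59, both called. At 6 h the difference was called with a different background correction or none, with the authors' processed values, with probes detected on at least 3 arrays and on the mean of its probes, and also without the first WT array at 0 h or at 6 h, or the 18 h array of the second or the third p53-/- clone.

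Pik3cg had 2 further probes, and both were lower in p53-/- cells at all 3 times, each called at 1 time. One was called at 6 h (-1.82, SE 0.276, adjusted p = 0.000385), with values of 8.47, 8.89 and 8.59 in p53-/- cells, against 10.35, 10.56 and 10.53 in WT cells. The other was called at 18 h (-1.99, SE 0.214, adjusted p = 3.93e-05), with values of 6.65, 7.16 and 7.44 in p53-/- cells, against 9.02, 8.94 and 8.71 in WT cells. This last probe also rose in WT cells, by 1.01 from 6 h to 18 h and by 0.91 from 0 h to 18 h, and its change from 0 h to 18 h differed between the genotypes (-1.50, SE 0.318, adjusted p = 0.0286). The first of them moved the other way in WT cells from 0 h to 18 h, by -0.72 (adjusted p = 0.0335, not called), so the probes gave the same direction between the genotypes and different directions over time.

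The 250 bases upstream of 1 of the 2 Pik3cg starts in RefSeq (chr12:32208471-32208720, minus strand, GRCm38.p6) are shown because Pik3cg was lower in p53-/- cells on each of its probes and this was the only promoter of the called members with a FOXO motif. FOXO factors are inactivated by AKT and SGK1. Capitals mark the motif GTAAACA.
Pik3cg: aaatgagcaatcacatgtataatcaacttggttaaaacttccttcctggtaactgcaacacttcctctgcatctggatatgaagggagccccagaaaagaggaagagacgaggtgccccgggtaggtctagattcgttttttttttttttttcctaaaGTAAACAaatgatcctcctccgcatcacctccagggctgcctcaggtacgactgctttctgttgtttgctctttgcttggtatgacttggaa

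Pik3cb encodes p110 beta, a catalytic subunit found in most tissues. Its log2 intensities at 6 h were 10.87, 11.01 and 10.49 in p53-/- cells, against 11.55, 11.62 and 11.50 in WT cells, with no overlap, and the difference was -0.69 (SE 0.132, adjusted p = 0.00192), which was not called without the first or second WT array or the first p53-/- array of that time (adjusted p up to 0.0189), nor with median scaling, without array weights or with only the arrays compared. At 18 h they were 10.59, 10.72 and 11.33 in p53-/- cells, against 11.44, 11.33 and 11.44 in WT cells, and the groups met at the third p53-/- array. The difference at 18 h was again -0.69 (SE 0.15, adjusted p = 0.00456), was not called with clone as a block (adjusted p = 0.00585), without array weights or with only the arrays compared, and lost its call without any 1 of 11 arrays, among them the 3 WT arrays and the first and second p53-/- arrays of that time (adjusted p up to 0.759, difference down to -0.35). At 0 h the values were 11.06, 10.71 and 10.77 in p53-/- cells, against 11.10, 10.97 and 11.21 in WT cells, and overlapped. In WT cells Pik3cb rose by 0.55 from 0 h to 6 h in all 3 clones (SE 0.118, adjusted p = 0.00448), a call that was lost with clone as a block (0.50, adjusted p = 0.0138), under 4 other settings (changes down to 0.38) and without any 1 of the 6 WT arrays compared or the second WT array at 18 h (adjusted p up to 0.249).

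Pik3cd, which encodes p110 delta, the other leukocyte subunit, was lower after IL-3 loss in both genotypes. It averaged 9.29 ± 0.72 at 0 h, 8.31 ± 0.55 at 6 h and 8.13 ± 0.21 at 18 h in p53-/- cells, and 9.17 ± 0.07, 8.47 ± 0.03 and 8.22 ± 0.12 in WT cells (SD, n = 3). All 6 clones were lower at 6 h and at 18 h than at 0 h. None of these changes was called without the block, and all 4 were called with it. With clone as a block Pik3cd fell by 1.09 at 6 h (adjusted p = 0.00069) and 0.94 at 18 h (adjusted p = 0.00187) in p53-/- cells, and by 0.66 (adjusted p = 0.00229) and 0.86 (adjusted p = 6.29e-05) in WT cells. The genotypes did not differ at any time by the test.

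Pik3r1 encodes p85 alpha, the regulatory subunit that holds the catalytic subunit and docks it on receptors. Its log2 intensities in p53-/- cells were 10.19, 10.10 and 9.68 at 0 h, 11.36, 10.68 and 10.20 at 6 h, and 11.25, 10.84 and 8.08 at 18 h. In WT cells they were 10.30, 10.48 and 10.83 at 0 h, 11.22, 11.12 and 10.90 at 6 h, and 11.88, 11.81 and 11.40 at 18 h. It rose in all 3 WT clones from 0 h to 18 h, by 1.26 (SE 0.237, adjusted p = 0.000519). That call was lost without the first or second WT array at 0 h or at 18 h (adjusted p up to 0.0394), and with median scaling, no detection filter or no array weights. Of the p53-/- clones 2 of 3 were higher at 18 h and the third array was the lowest of all 18, and the change of 0.95 (SE 0.363, adjusted p = 0.127) was not called. Pik3r2, which encodes p85 beta, was not called, with values between 7.10 and 10.09, the highest on the third p53-/- array at 18 h. The same clone also gave the highest Pik3r2 value at 0 h (9.04) and at 6 h (9.08).

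**Figure D3:**
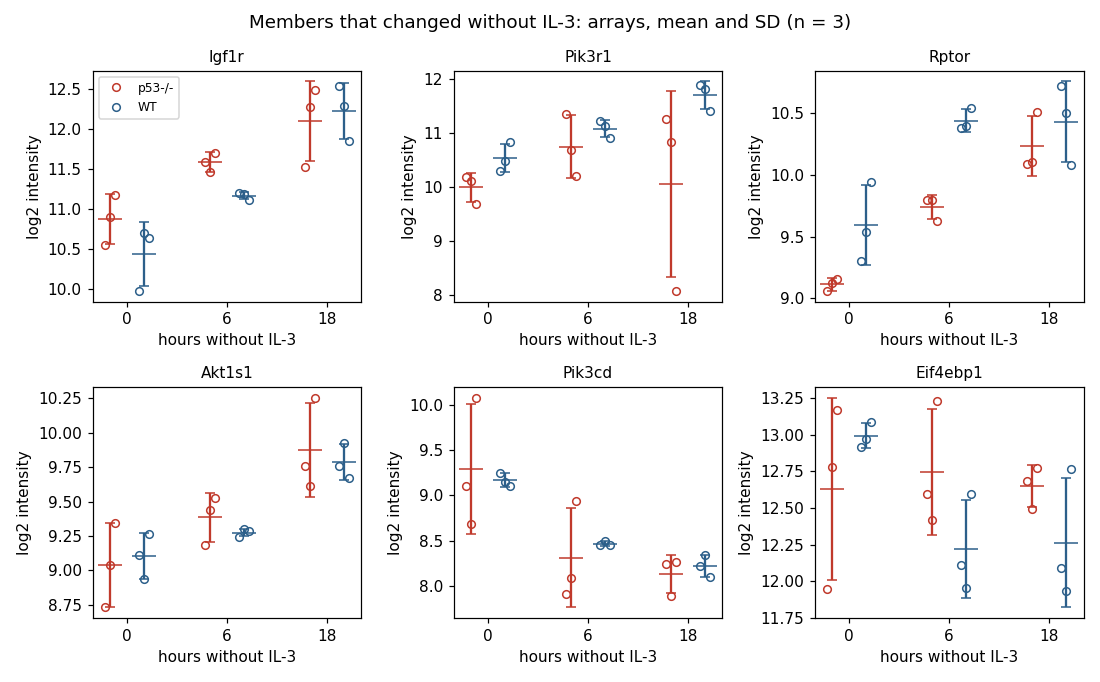
Log2 intensity (y axis) of 6 members by hours without IL-3 (x axis), with p53-/- cells in red to the left of WT cells in blue at each time, circles for the 3 arrays of a group and bars for the mean and SD. Igf1r, Pik3r1, Rptor and Akt1s1 are higher at 18 h than at 0 h on all WT arrays, Pik3cd is lower in all clones of both genotypes, and Eif4ebp1 is lower in the WT clones while the p53-/- means stay between 12.63 and 12.75.

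The inositol 5-phosphatases SHIP1 and SHIP2, which remove PIP3, are encoded by Inpp5d and Inppl1. Inpp5d, the form of blood cells, averaged 11.37 ± 0.22 in p53-/- cells and 12.03 ± 0.24 in WT cells at 6 h (SD, n = 3). The groups did not overlap at 0, 6 or 18 h, with log2 differences of -0.69 at 6 h (adjusted p = 0.0106) and -0.76 at 18 h (adjusted p = 0.0137) that had a negative B and were not called. Inppl1 was detected on 7 arrays and was not called. In WT cells it was detected only in the third clone, at 6.13, 6.67 and 6.54 at 0, 6 and 18 h, while the other WT clones lay between 4.45 and 4.78.

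Of the kinases that PDK1 activates, Sgk1 gave the largest difference of the list between the genotypes. Sgk1 encodes serum and glucocorticoid regulated kinase 1, a relative of AKT that shares part of its targets. Its log2 intensities at 0 h were 9.32, 9.25 and 9.999 in p53-/- cells, against 7.86, 6.90 and 6.34 in WT cells. At 6 h they were 6.34, 7.25 and 8.09 in p53-/- cells, against 6.03, 5.53 and 5.82 in WT cells. At 18 h they were 7.12, 7.05 and 8.47 in p53-/- cells, against 6.09, 4.96 and 5.95 in WT cells. At each time the p53-/- arrays lay above all WT arrays. In both genotypes the 0 h arrays lay above all 6 h and 18 h arrays of that genotype. The difference at 0 h was 2.59 (SE 0.455, 95% CI 1.62 to 3.55, adjusted p = 0.00283), and it was 1.21 (SE 0.364, adjusted p = 0.0262) at 6 h and 1.75 (SE 0.415, adjusted p = 0.00757) at 18 h, both with a negative B. With clone as a block the difference at 18 h was called as well (1.79, adjusted p = 0.00388), as it was without the first p53-/- array at 6 h. The call at 0 h was lost without the WT array of the second or the third clone, or that of the third p53-/- clone, at 0 h (adjusted p up to 0.0609), with differences of 2.15 to 2.91 over the 18 fits that each left out 1 array. The size also depended on the background correction. Without it the difference at 0 h was 1.79, and with the authors' processed values it was 1.20, both called, while the differences in the authors' values at 6 h (0.24) and 18 h (0.31) were not.

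Sgk1 fell after IL-3 loss in p53-/- cells, by 2.57 at 6 h (SE 0.483, adjusted p = 0.0116) and by 2.40 at 18 h (SE 0.516, adjusted p = 0.00949), in all 3 clones. In WT cells it fell by 1.57 at 18 h (SE 0.336, adjusted p = 0.0015), also in all 3 clones, and the change of -1.19 at 6 h (adjusted p = 0.0198) was called only with clone as a block (-1.36, adjusted p = 0.000618). The fall at 18 h in WT cells was the least firm of these, since it stayed called in 4 of the 18 fits that each left out 1 array, those without the 0 h array of the third clone of either genotype, or the 6 h array of the first or the third p53-/- clone. It was also lost under 7 of the 12 processing alternatives, among them each other background correction, with changes between -1.72 and -0.27. Without the second WT array at 18 h the change was -0.92. The falls in p53-/- cells were lost without the third p53-/- array at 0 h, and also without the first or second p53-/- array at 6 h for the change at 6 h (adjusted p up to 0.201), and without the first or second p53-/- array at 0 h or at 18 h for the change at 18 h (adjusted p up to 0.872), which was not called without array weights either. With the authors' processed values these falls were -1.18 and -1.16, both called. The difference between the genotypes in these changes was -1.38 at 6 h (adjusted p = 0.527) and -0.84 at 18 h (adjusted p = 0.507) and was not called. In WT cells this probe was detected on 2 of 3 arrays at 6 h and on 2 of 3 at 18 h. The background may therefore limit the WT falls, the genotype differences at 6 and 18 h and the difference in change.

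A second, dimmer Sgk1 probe showed a larger step at 0 h. Its values at 0 h were 8.49, 7.59 and 8.89 in p53-/- cells, against 6.00, 5.41 and 4.72 in WT cells, a difference of 2.94 (SE 0.298, adjusted p = 8.83e-05). At 6 h they were 5.27, 5.68 and 5.74 in p53-/- cells, against 4.45, 4.60 and 4.52 in WT cells. At 18 h they were 5.51, 5.20 and 5.59 in p53-/- cells, against 4.89, 4.62 and 4.38 in WT cells. It was detected on all 3 p53-/- arrays at 0 h, on 2 at 6 h and on 0 at 18 h, and on 1 of the 9 WT arrays. In p53-/- cells it fell by 2.82 at 6 h (SE 0.316, adjusted p = 0.000265) and was at least 5.76-fold lower at 18 h (adjusted p = 0.000157). The change on this probe from 0 h to 18 h passed the test of a genotype difference, and that from 0 h to 6 h did so only with clone as a block. It was undetected on all p53-/- arrays at 18 h, on all WT arrays at 6 and 18 h and on 2 of 3 WT arrays at 0 h, so the background limits the measured change in both genotypes and no size is given.

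**Figure D4:**
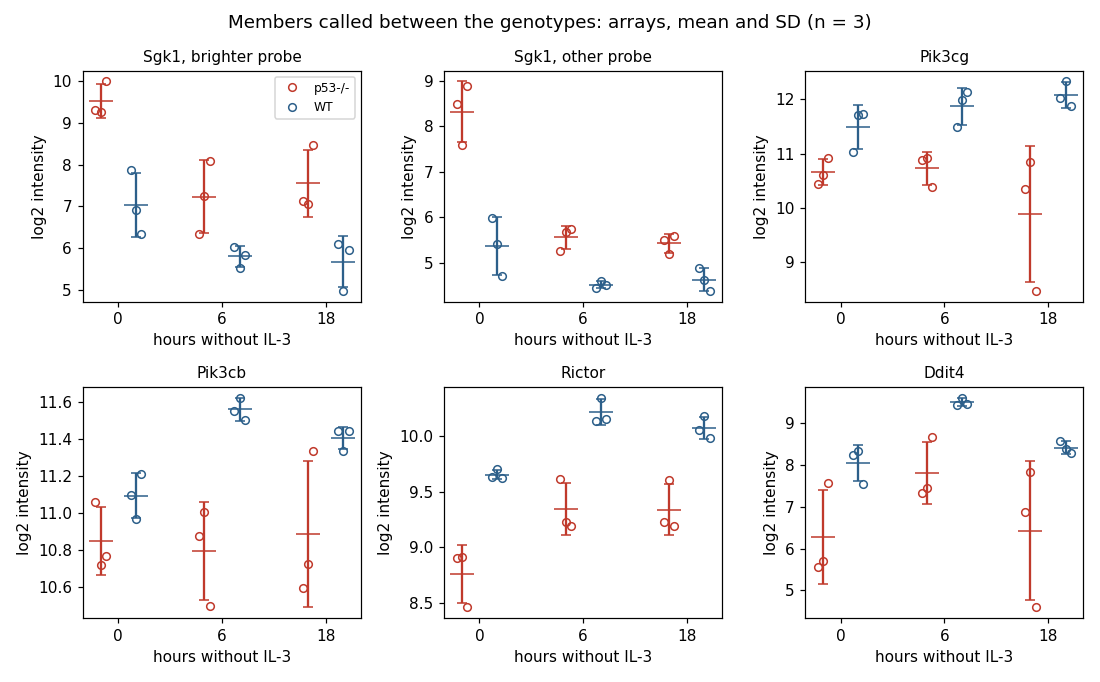
Log2 intensity (y axis) by hours without IL-3 (x axis) for both Sgk1 probes, Pik3cg, Pik3cb, Rictor and Ddit4, with p53-/- cells in red to the left of WT cells in blue, circles for the 3 arrays of a group and bars for the mean and SD. The p53-/- arrays lie above all WT arrays of the same time on both Sgk1 probes, and below them for Pik3cg and Rictor at all 3 times.

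Of 6 Sgk1 starts in RefSeq, the one farthest upstream (chr10:21881934-21882183, plus strand, GRCm38.p6) held a match to the STAT motif TTCNNNGAA 223 bases before the start, which is why its 250 upstream bases are shown. IL-3 signals through STAT5. Capitals mark the match.
Sgk1: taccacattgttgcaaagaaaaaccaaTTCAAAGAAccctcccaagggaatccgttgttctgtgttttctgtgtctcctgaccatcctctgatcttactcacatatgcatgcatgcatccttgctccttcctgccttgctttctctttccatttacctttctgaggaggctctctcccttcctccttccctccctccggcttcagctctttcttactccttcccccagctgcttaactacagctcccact
Which start is used in these cells was not measured.

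Sgk3, which encodes an SGK kinase that binds endosomal lipids, ran lower in p53-/- cells. Its brightest probe averaged 8.04 ± 0.87 in p53-/- cells and 9.60 ± 0.33 in WT cells at 6 h (SD, n = 3), and the differences of -1.21, -1.22 and -1.20 at 0, 6 and 18 h had adjusted p-values of 0.0663, 0.0149 and 0.0341 with a negative B, so none was called. The third and dimmest probe of Sgk3 was called at 0 h and 6 h and was not detected on any p53-/- array, which bounds the difference at at least 1.25-fold lower at 0 h (adjusted p = 0.00185) and at least 1.34-fold lower at 6 h (adjusted p = 0.000385). In WT cells this probe was at least 1.26-fold lower at 18 h than at 0 h (adjusted p = 0.000241), whereas the brightest probe was not called there. The brightest probe fell in p53-/- cells at 6 h with clone as a block only (-0.85, adjusted p = 0.00364).

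Pdpk1, which encodes PDK1, and Akt2, which encodes an AKT kinase, were detected on all 18 arrays and were not called. Akt2 averaged 10.18 ± 0.31 in p53-/- cells and 10.78 ± 0.19 in WT cells at 0 h (SD, n = 3), a difference of -0.56 with a 95% CI of -0.97 to -0.15 (adjusted p = 0.0662). Gsk3a and Gsk3b encode the GSK3 kinases that AKT holds inactive. Gsk3a in WT cells was 6.16, 6.24 and 5.84 at 18 h, against 5.23, 5.08 and 5.95 at 6 h, and was higher by 0.84 (SE 0.177, adjusted p = 0.00334). The groups overlapped, 2 of 3 clones rose, 1 of the 6 h arrays was detected, and the call was lost with clone as a block (adjusted p = 0.00521) and under 7 other settings, and without the first WT array at 0 h or the first or second at 6 or 18 h (adjusted p up to 0.187). At 0 h Gsk3a was 6.05, 5.97 and 6.13 in WT cells. The p53-/- values were 6.05, 6.23 and 5.96 at 0 h, 5.80, 5.93 and 6.16 at 6 h, and 5.63, 5.73 and 4.92 at 18 h. Gsk3b was called only with clone as a block, rising by 1.20 from 0 h to 6 h in p53-/- cells (adjusted p = 0.00234), where it averaged 10.998 ± 0.24 at 6 h and 9.96 ± 0.52 at 0 h (SD, n = 3). In WT cells the same probe averaged 10.60 at 0 h and 11.28 at 6 h, which was not called. A second Gsk3b probe, also detected on all 18 arrays, did not rise in p53-/- cells, averaging 7.83 at 0 h and 7.70 at 6 h.

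Tsc1 and Tsc2 encode the complex that switches off RHEB, the activator of mTORC1. Tsc2 was detected on all 18 arrays, between 9.89 and 10.64, and was not called. Tsc1 was detected on 9 arrays with its brightest probe and was not called, and a dimmer Tsc1 probe, undetected on the WT arrays at 0 h, was at least 1.10-fold higher at 18 h in WT cells (adjusted p = 0.000581) although 2 of 3 clones rose and the groups overlapped.

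Of the mTOR complexes, the scaffold subunits were called, and the other subunits were not on their brightest probes. Rictor, which encodes the scaffold of mTORC2, was 8.90, 8.91 and 8.46 in p53-/- cells at 0 h, against 9.63, 9.70 and 9.63 in WT cells. At 6 h it was 9.61, 9.22 and 9.19 in p53-/- cells, against 10.14, 10.35 and 10.15 in WT cells. At 18 h it was 9.22, 9.60 and 9.19 in p53-/- cells, against 10.05, 10.18 and 9.98 in WT cells. Every p53-/- array lay below every WT array of its time. The difference was -0.93 at 0 h (SE 0.185, adjusted p = 0.00518), -0.85 at 6 h (SE 0.148, adjusted p = 0.001) and -0.70 at 18 h (SE 0.168, adjusted p = 0.00799), and the last had a negative B and was not called. Both calls were lost with median scaling and with only the arrays compared. At 0 h the call was lost without any 1 WT array or the third p53-/- array of that time (adjusted p up to 0.0852), and at 6 h without the second WT or the second p53-/- array (adjusted p up to 0.016). The 4 other Rictor probes, detected on 1 to 12 arrays, were not called between the genotypes, and the mean over all Rictor probes was not called, with differences of -0.30 at 0 h and -0.35 at 6 h.

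Rptor, which encodes Raptor, the scaffold of mTORC1, rose after IL-3 loss in both genotypes on its brightest probe. Its log2 intensities in p53-/- cells were 9.06, 9.12 and 9.16 at 0 h, 9.80, 9.80 and 9.63 at 6 h, and 10.09, 10.10 and 10.51 at 18 h. In WT cells they were 9.31, 9.54 and 9.94 at 0 h, 10.39, 10.40 and 10.55 at 6 h, and 10.72, 10.50 and 10.08 at 18 h. All 6 clones were higher at 6 h and at 18 h than at 0 h, with no overlap. The rise to 18 h was 1.00 in p53-/- cells (SE 0.207, adjusted p = 0.00798) and 0.93 in WT cells (SE 0.135, adjusted p = 5.32e-05). At 6 h it was 0.86 in WT cells (SE 0.131, adjusted p = 0.000392), and the change of 0.66 in p53-/- cells (SE 0.194, adjusted p = 0.0743) was not called. The call in p53-/- cells was lost without any 1 of 5 arrays, namely each at 0 h and the first or second at 18 h (adjusted p up to 0.508), and the calls in WT cells without the first or second array at 0 h for 6 h (adjusted p up to 0.0458) and without the second array at 0 h or the first or second at 18 h for 18 h (adjusted p up to 0.0107). Averaged over all Rptor probes the change in p53-/- cells was 0.24 (adjusted p = 0.502), and its call was also lost with median scaling and with only the arrays compared. Both calls in WT cells were lost without array weights and with only the arrays compared, and that at 6 h also on the mean of all probes. A second Rptor probe of like brightness rose in WT cells by 0.82 at 6 h (adjusted p = 0.00285) and 0.96 at 18 h (adjusted p = 0.00031), while its changes of 0.56 at both times in p53-/- cells (adjusted p = 0.23 and 0.219) were not called, and 2 dim ones were not called.

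Mtor, the kinase of both complexes, was not called on its brightest probe, with values between 7.76 and 9.81. Its second probe gave a different picture. At 6 h it read 8.72, 8.70 and 10.11 in p53-/- cells, against 7.68, 7.53 and 7.30 in WT cells (difference 1.36, SE 0.294, adjusted p = 0.0041), and it was lower by 1.56 at 18 h than at 6 h in p53-/- cells (SE 0.344, adjusted p = 0.028), with overlap. Mlst8, a subunit of both complexes, was likewise called on its second probe only, at 8.22, 8.19 and 9.23 in p53-/- cells against 6.86, 7.08 and 6.84 in WT cells at 18 h (difference 1.24, SE 0.223, adjusted p = 0.00132). Mapkap1, which encodes the mTORC2 subunit SIN1, was not called on any of its 4 probes. Over the 16 members with more than 1 probe, 28 further probes were compared with the brightest, and 19, 22 and 18 of them had the same sign of the genotype difference at 0, 6 and 18 h.

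Of the genes for inhibitors of mTOR, 3 were measured. Ddit4 encodes REDD1, a stress-induced protein that acts through TSC and is a known p53 target. Its log2 intensities at 0 h were 5.57, 5.71 and 7.58 in p53-/- cells, against 8.25, 8.35 and 7.55 in WT cells. At 6 h they were 7.34, 7.44 and 8.67 in p53-/- cells, against 9.45, 9.62 and 9.47 in WT cells. At 18 h they were 6.88, 7.82 and 4.59 in p53-/- cells, against 8.58, 8.40 and 8.28 in WT cells. The groups met at 0 h, where the third p53-/- clone lay just above the lowest WT clone, and were apart at 6 and 18 h. The difference at 6 h was -1.99 (SE 0.357, adjusted p = 0.00125), and the differences of -1.90 at 0 h (SE 0.446, adjusted p = 0.0126) and -1.14 at 18 h (SE 0.406, adjusted p = 0.0598) had a negative B. The call at 6 h was lost without the second WT array or the first or second p53-/- array at 6 h (adjusted p up to 0.0697), and also without a detection filter or array weights. With the authors' processed values the difference was -1.01 and was called. In WT cells Ddit4 was higher at 6 h than at 0 h in all 3 clones, by 1.32 (SE 0.32, adjusted p = 0.01), which was called with clone as a block (1.39, adjusted p = 0.00174) and not without it. All 3 p53-/- clones were also higher at 6 h than at 0 h, averaging 7.82 against 6.29, beside 9.51 against 8.05 in WT cells. The changes in p53-/- cells were not called at either time.

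The 250 bases upstream of the Ddit4 start (chr10:59951771-59952020, minus strand, GRCm38.p6) are shown because Ddit4 is the member with the largest called difference between the genotypes in the lower direction on a brightest probe, and none of the 5 motifs searched was found there.
Ddit4: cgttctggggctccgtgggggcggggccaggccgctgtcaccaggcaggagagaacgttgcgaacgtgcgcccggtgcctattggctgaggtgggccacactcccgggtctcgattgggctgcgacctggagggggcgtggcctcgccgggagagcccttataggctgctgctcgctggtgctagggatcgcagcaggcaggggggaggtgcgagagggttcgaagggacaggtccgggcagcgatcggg

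Akt1s1 encodes PRAS40, an mTORC1 inhibitor that AKT inactivates. It was 8.73, 9.04 and 9.35 at 0 h, 9.19, 9.44 and 9.53 at 6 h, and 9.76, 9.61 and 10.26 at 18 h in p53-/- cells. In WT cells it was 9.11, 8.94 and 9.27 at 0 h, 9.24, 9.30 and 9.28 at 6 h, and 9.76, 9.93 and 9.67 at 18 h. All 6 clones were higher at 18 h than at 0 h, with no overlap. The rise of 0.84 in WT cells was called (SE 0.132, adjusted p = 0.000106), except without the second array at 0 h or the first or second at 18 h (adjusted p up to 0.0212) and without array weights (0.68, adjusted p = 0.0367), and the change of 0.65 in p53-/- cells was not (SE 0.202, adjusted p = 0.0603). Deptor, which encodes an inhibitor of both mTOR complexes, was detected on all 18 arrays between 6.52 and 7.43 and was not called.

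Of the targets of mTORC1, Eif4ebp1, which encodes the translation repressor 4E-BP1, was lower after IL-3 loss in WT cells. It averaged 12.63 ± 0.62 at 0 h, 12.75 ± 0.43 at 6 h and 12.65 ± 0.14 at 18 h in p53-/- cells, and 12.99 ± 0.09, 12.22 ± 0.33 and 12.26 ± 0.44 in WT cells (SD, n = 3). All 3 WT clones were lower at 6 h and at 18 h than at 0 h. The changes in WT cells were -0.84 at 6 h (adjusted p = 0.00966) and -0.90 at 18 h (adjusted p = 0.00261) with a negative B, and were called with clone as a block (-0.87, adjusted p = 0.00108, and -0.92, adjusted p = 0.000159). With the block the change from 0 h to 18 h also differed between the genotypes, by 1.18 (adjusted p = 0.00801), and without it the difference was 0.83 (adjusted p = 0.255). The p53-/- clones moved in different directions from 0 h to 18 h. The first rose from 11.95 to 12.68, while the second fell from 12.78 to 12.50 and the third from 13.17 to 12.78. The last of these values is from the array with a weight of 0.0905. Eif4ebp2, a second repressor of this kind, averaged 8.88 ± 0.55 in p53-/- cells and 9.82 ± 0.14 in WT cells at 0 h (SD, n = 3), with a difference of -0.99 (adjusted p = 0.0388) that was not called. Rps6kb2, which encodes the S6 kinase 2, was detected on 14 arrays and was not called.

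**Figure D5:**
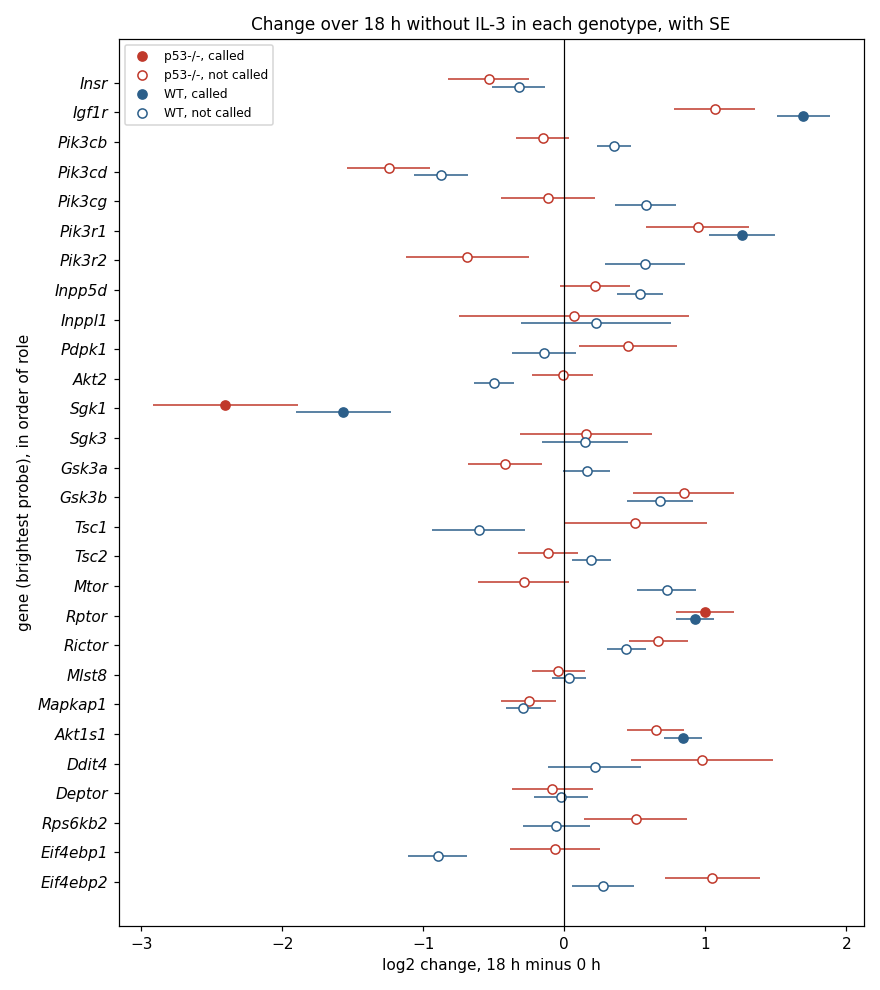
Log2 change from 0 h to 18 h without IL-3 (x axis) in p53-/- cells (red) and WT cells (blue) for the 28 members (y axis, grouped by role), with standard errors as bars and filled points for the members called. Sgk1 fell and Rptor rose in both genotypes, and Igf1r, Pik3r1 and Akt1s1 were called in WT cells, with p53-/- changes of the same sign that were not called.

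A further 57 genes of the pathway were listed with roles beside those of the members, of which 39 were measured. Between the genotypes 2, 4 and 2 of 39 were called at 0, 6 and 18 h, all lower in p53-/- cells. These are 5.13%, 10.3% and 5.13%, near the 4.8%, 9.09% and 7.84% of all genes. Phlda3, a p53 target that encodes a repressor of AKT, was 4.77, 4.72 and 4.37 in p53-/- cells at 0 h, against 9.60, 9.08 and 7.74 in WT cells. It was not detected on any p53-/- array and was at least 9.004-fold lower at 0 h, at least 5.59-fold lower at 6 h and at least 4.99-fold lower at 18 h. Pik3ap1, which encodes the adaptor BCAP that links receptors to PI3K, was lower by 1.53 at 6 h (adjusted p = 0.000631) and 2.11 at 18 h (adjusted p = 0.000185). Its values at 18 h were 9.02, 9.76 and 9.89 in p53-/- cells, against 11.18, 11.68 and 11.61 in WT cells, with no overlap. Pik3r4, which encodes the regulatory subunit of the class III PI3K, and Eif4b, which encodes a translation factor, were also called lower. Pik3r4 was detected on 6 of the 18 arrays and on 0 p53-/- arrays at each time, so the background limits its difference.

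After IL-3 loss 13 of these 39 genes were called in WT cells at 18 h against 0 h, 8 higher and 5 lower, which is 33.3% beside the 18.2% of all genes (7.61% higher and 10.6% lower). The list was chosen with earlier results of these data known, so the higher share is not a test of the pathway. Pik3ip1, which encodes a PI3K inhibitor, rose by 1.55 there and by 2.05 in p53-/- cells, where it was the only one of the 39 called (2.56%, beside 3.92% of all genes), with values of 11.45, 11.51 and 11.23 at 18 h, against 10.10, 9.50 and 8.77 at 0 h. Ulk1, which encodes the autophagy kinase that mTORC1 restrains, rose by 1.85 in WT cells, and the change of 1.52 in p53-/- cells was called only with clone as a block. Trib3, which encodes a pseudokinase that binds AKT, fell by 2.00 in WT cells. Each p53-/- clone was also lower at 18 h for Trib3, which averaged 8.10 against 9.83 at 0 h, and this was not called without the block. Telo2, which encodes a chaperone for mTOR and related kinases, fell at 6 h by 1.27 in p53-/- cells and 1.28 in WT cells. Also higher in WT cells at 18 h were Pik3ap1, Inpp5k, Tti1, Ddit4l, Eif4ebp3 and Mtcp1, and also lower were Tbc1d7, Eif4e and Eif4b. Of these, Ddit4l was dim, detected on 1 WT array at 0 h and on 2 at 18 h, and its groups overlapped. Eif4e was detected on 0 WT arrays at 18 h, so the background limits its fall. Stk11 rose in WT cells between 6 h and 18 h.

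The promoters of the 10 called members were searched for 5 motifs on both strands, over 250 bases before to 50 bases after each of 17 starts in RefSeq (GRCm38.p6). GTAAACA (FOXO), found in 3.65% of 32851 mouse promoters of this length, was in 1 of the 17, of Pik3cg, and began 92 bases before the start. TTCNNNGAA (STAT), found in 8.3% of all promoters, was in 1 promoter of Sgk1, and CACGTG (E-box), found in 7.15%, was in another promoter of Sgk1. The p53 motif (the decamer of its response element), found in 8.36%, was in that of Gsk3a, and TGACGTCA (the cyclic AMP element), found in 1.79%, was in none. The motifs share no letters of one match with another in these promoters, and a match is a stretch of letters and not a measured site.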

How the data were processed

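RNA of 18 cultures (3 clones of p53-/- and 3 of WT FDM cells at 0, 6 and 18 h) had been labelled and hybridized to Illumina MouseWG-6 V1 arrays. The intensity values the authors deposited are averages over the beads of a probe and were not normalized. The deposited detection score equals 1 - p, from which the detection p-value was taken. A table of log2 values the authors made with lumi (quantile normalized, median 8.137, transform not stated) served as an alternative. No column was left without a sample (0 unused), and 0 pairs of arrays were identical.

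Of 46632 probes 29976 carried 1 symbol, 10 several and 16646 none, and 29933 matched RefSeq (GRCm38.p6). Background correction, quantile normalization and the log2 step were those of neqc (limma 3.58.1 under R 4.3.3), with the background from the detection p-values and an offset of 16. A probe stayed in if 1 or more arrays had it below a detection p of 0.01 (21413 probes). A model of the 6 groups was fitted with arrayWeights, lmFit and eBayes, and 11 comparisons were taken from it, all tests two-sided. For a probe undetected throughout a group, a bound ("at least N-fold") was taken, with the floor on each array being the dimmest detected probe or, if brighter, the probe itself. The number of arrays limits the precision, and slides were not used here.

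Same-numbered arrays of a genotype shared a clone by the check of their deviations from the group mean (r between 0.276 and 0.756 over 18 pairs), and arrays of different genotypes did not (between -0.0417 and 0.0336 over 9 pairs at the same time). Clone was a fixed block for changes within a genotype and a random block (correlation 0.246) between genotypes, as an alternative. The members and lists were chosen with earlier results of these data known. Values on every array are given for members called on their brightest probe in at least 1 comparison, the 57 other pathway genes are named where called, and other values were chosen after they were seen. The fit was tested on simulated data. Figures were drawn with matplotlib 3.10.9 (Python 3.11.15).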

Additional observations from a re-analysis of the deposited data

Results flagged for a closer look

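In 4 cases a test of the difference between the genotypes in their change over time passed. On the second Sgk1 probe the change from 0 h to 6 h differed by -2.15 with clone as a block (adjusted p = 0.00932), against -1.97 without it (adjusted p = 0.239). On the same probe the change from 0 h to 18 h differed by -2.25 (adjusted p = 0.0169), and by -2.15 with the block (adjusted p = 0.00134). This probe was undetected on all p53-/- arrays at 18 h, on all WT arrays at 6 and 18 h and on 2 of 3 WT arrays at 0 h, so the background limits these sizes. The brighter Sgk1 probe, detected on 2 of 3 WT arrays at 6 h and on 2 of 3 at 18 h, did not pass either test. On 1 of the 3 Pik3cg probes the change from 0 h to 18 h differed by -1.50 (adjusted p = 0.0286), and the other probes, at -0.69 (adjusted p = 0.372) and 0.36 (adjusted p = 0.742), did not pass. For Eif4ebp1 the change from 0 h to 18 h differed by 1.18 with the block (adjusted p = 0.00801).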

How the results depend on the processing

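No called direction reversed under the alternatives that were run. The counts below are members called of 28, in the order of time for each kind of comparison, beside 2, 3 and 2 between the genotypes at 0, 6 and 18 h, 2, 2 and 5 in WT cells (6 h against 0 h, 18 h against 6 h, 18 h against 0 h) and 1, 0 and 2 in p53-/- cells. Without the condition on B, between the genotypes 7, 10 and 8 members were called at an adjusted p of 0.1 and 5, 9 and 6 at 0.05, in WT cells 12, 7 and 15 and then 10, 5 and 14, and in p53-/- cells 6 and 7 and then 2 and 4 at 6 h and at 18 h against 0 h. Background correction with an offset of 50, none at all, or the authors' processed values gave 5 between the genotypes at 6 h and 4 in WT cells at 6 h, and the first and second of these gave 2 in p53-/- cells at 6 h. The authors' values gave 1 for the genotype difference in the change from 0 h to 18 h. Probes detected on at least 3 arrays gave 5 between the genotypes at 6 h and 2 in p53-/- cells at 6 h. Without a detection filter 1, 1 and 3 were called in WT cells. Without array weights 1 and 1 were called between the genotypes at 6 and 18 h, and 0, 0 and 1 in WT cells. Median scaling gave 1 between the genotypes at 0 h and at 6 h, and 1 in WT cells at 6 h against 0 h and at 18 h against 6 h. Fitting only the arrays compared gave 1, 1 and 1 between the genotypes and 1 in p53-/- cells at 18 h against 0 h. The mean of all probes of a gene gave 1 between the genotypes at 0 h, 1, 1 and 3 in WT cells and 1 in p53-/- cells at 18 h against 0 h. The replicate block (clone) gave 5 and 1 in WT cells at 6 h against 0 h and 18 h against 6 h, 4 in p53-/- cells at 6 h, and 1 for the genotype difference in the change from 0 h to 18 h, and it kept the other counts within 1.5 times. Leaving out 1 array at a time gave 0 to 3, 0 to 4 and 0 to 2 between the genotypes, 0 to 4, 0 to 2 and 1 to 6 in WT cells, 0 to 2, 0 to 0 and 0 to 3 in p53-/- cells, and 0 for both differences in change. Over all 21413 probes, calls without array weights numbered 445, 549 and 892 between the genotypes, 281, 400 and 1316 in WT cells and 158 in p53-/- cells at 18 h against 6 h, beside 927, 1724, 1590, 1367, 1718, 3903 and 314 with them. The genotype difference in the change from 0 h to 18 h was called on 8 probes without array weights, on 160 without a detection filter and on 180 with only the arrays compared, beside 280. With the replicate block 1449, 744 and 1705 probes were called in p53-/- cells, beside 363, 314 and 766, and 350 and 1171 for the genotype difference in the change to 6 h and to 18 h, beside 3 and 280. Fitting only the arrays compared gave 581, 978 and 775 between the genotypes, 1068 in WT cells at 18 h against 6 h, and 182, 123 and 350 in p53-/- cells. Median scaling gave 867 in WT cells at 6 h and 535 and 1239 in p53-/- cells at 18 h against 6 h and 0 h. Without a detection filter 815, 1103 and 2546 were called in WT cells. The cause of these shifts was not tested.

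With 3 clones a group and a weight of 0.0905 on 1 array, most calls rest on few arrays. Where a probe was undetected on all arrays of 1 of 2 groups compared, as the second Sgk1 probe at 18 h and the third Sgk3 probe in p53-/- cells, the fold is given as a bound.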
